A study of Mus musculus with 383 samples.

Results

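The tachykinins and their receptors were followed in single nuclei of the mouse vagal motor nucleus through 4 genes of a read count table of 29779 genes. These were the precursor genes Tac1 and Tac2 and the receptor genes Tacr1 and Tacr3, taken by name. The other 2 genes of the family in the table, Tac4 and Tacr2, are given beside them. The nuclei came from the vagal dorsal motor nucleus (DMV) of male Chat-IRES-Cre mice, which make Cre recombinase in cells that express the acetylcholine-synthesising enzyme gene Chat. The mice received 100 nL of AAV9-DIO-H2b-mCherry, a Cre-dependent virus that puts a red tag on the nucleus, when 10 weeks old, and were killed 16 days after that. Dissected tissue was pooled, nuclei positive for mCherry and a DNA dye were sorted 1 per well, and Smart-seq2 libraries, which read along the transcript, were made with 22 PCR cycles and no molecular identifiers. There was 1 group, every nucleus carried the same Cre allele and virus, and no animal was named. The nuclei therefore stand for 1 sample, no test between groups of nuclei was possible, and all intervals below are 95% intervals for counting error only.

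Of the 383 nuclei, the 316 (82.5%) with at least 1000 genes with a read were used. They held between 1590 and 4699420 reads (median 1440075), and 295 of them reached 500000 reads. The cholinergic label held: Chat was read in 304 of 316 nuclei (96.2%), and the vesicular acetylcholine transporter gene Slc18a3 in 297 (94.0%). Markers of other cells were also present at uneven shares. Their list medians ran from 6.65% for oligodendrocyte precursors to 41.8% for catecholaminergic neurons, and single ones were in most nuclei, such as the catecholamine enzyme gene Ddc (89.2%), the myelin gene Mbp (76.9%) and Pecam1 of endothelium (67.7%). Clustering without any of the listed genes put 294 nuclei into clusters with visceral motor markers and 22 into a cluster with somatic motor markers, called visceral and somatic motor-like below. The visceral motor-like nuclei include a cluster of 23 with fewer marks of that class: its mean share was 34.8% over the visceral motor markers and 60.9% over the cholinergic ones, but 53.9% over the astrocyte and 42.4% over the serotonergic markers. Without these 23 nuclei, Tac1 was in 11 of 293 nuclei (3.75%), Tac2 in none, Tacr1 in 139 (47.4%) and Tacr3 in 177 (60.4%).

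Tachykinins are short peptides that neurons and other cells cut from longer precursors and release. They share the end of their sequence, which is the part that activates the receptors. Substance P and neurokinin A, both from Tac1, act mainly on the neurokinin 1 receptor (gene Tacr1) and the neurokinin 2 receptor (gene Tacr2) respectively, and neurokinin B, from Tac2, acts mainly on the neurokinin 3 receptor (gene Tacr3). All 3 receptors couple to the Gq family of G proteins, raise intracellular calcium and depolarise neurons. In the dorsal vagal complex, substance P is a transmitter of incoming fibres, and vagal motor neurons are known to respond to it. Tac4 encodes hemokinin-1, another agonist of the neurokinin 1 receptor.

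The coding sequences of the 3 peptides are shown because they tie the precursor rows of the table to the receptor rows. Each is written 5′ to 3′ on the plus strand of GRCm38, from the GENCODE M21 transcripts, and the capitals mark the last 5 codons, the shared receptor-activating end.
substance P: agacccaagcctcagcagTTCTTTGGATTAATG
neurokinin A: cataaaacagattccTTTGTTGGACTAATG
neurokinin B: gacatgcacgacttcTTTGTGGGACTTATG
Substance P is encoded at chr6:7556732-7556764 and neurokinin A at chr6:7559101-7559130, both in coding exons of Tac1. Neurokinin B is encoded at chr10:127729116-127729145, in a coding exon of Tac2. Over the 15 marked bases, substance P and neurokinin A had the same base at 12 positions, substance P and neurokinin B at 10, and neurokinin A and neurokinin B at 13. The table counts whole genes, so reads of Tac1 cannot be split between substance P and neurokinin A.

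In the same annotation Tac1 spans chr6:7554879-7565834, Tac2 chr10:127724478-127731768, Tacr1 chr6:82402334-82560104 and Tacr3 chr3:134829007-134934579, all on the plus strand. None of the 6 family genes overlaps another annotated gene. How the authors treated intronic reads is not given in the sources used here, and Tacr1 and Tacr3 are much longer (157.8 and 105.6 kb) than Tac1 and Tac2 (11.0 and 7.29 kb).

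The receptor genes were common and the precursor genes rare. Tac1 was read in 15 of 316 nuclei (4.75%, interval 2.68 to 7.71%), and Tac2 in 1 (0.316%, interval 0.00801 to 1.75%). Tacr1 was read in 153 nuclei (48.4%, interval 42.8 to 54.1%) and Tacr3 in 192 (60.8%, interval 55.1 to 66.2%). Tac4 and Tacr2 were read in 22 (6.96%) and 29 nuclei (9.18%). At least 1 of the 2 main receptor genes was read in 244 nuclei (77.2%, interval 72.2 to 81.7%). Among the 67 nuclei left out for few genes, 1 held Tacr1 and none held Tac1, Tac2 or Tacr3, where a count of 0 allows a share of up to 5.36% by the exact interval. Those nuclei held a median of only 2328 reads.

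**Figure D1:**
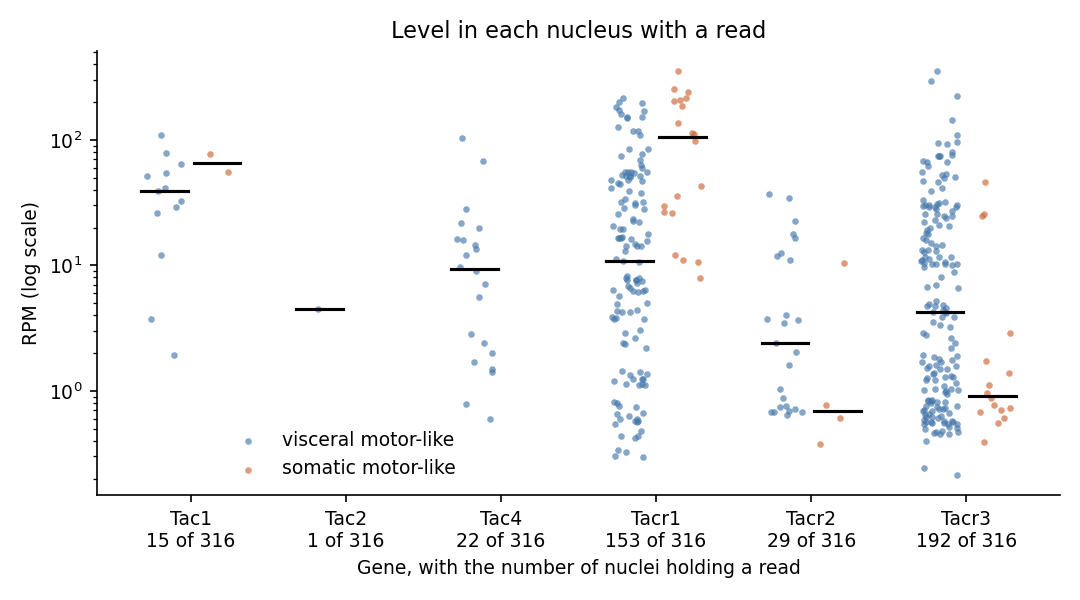
Each point is 1 nucleus with a read of the gene, on a log scale in RPM (its reads scaled by all reads of that nucleus), for visceral (blue) and somatic (orange) motor-like nuclei. Black lines are medians over the nuclei with a read, and nuclei without one are not drawn. Tac1 lies mostly above 10 where it is found at all, whereas Tacr1 and Tacr3 spread from below 1 to 353 and 354.

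Where Tac1 was found, it usually had many reads. Its reads per nucleus ran from 2 through a median of 52 to 174, which is 1.93, 41.4 and 108 reads per 1000000 reads of the nucleus (RPM). Of the 15 nuclei, 13 held at least 20 Tac1 reads and 2 held 2 reads each. Tac1 read counts were thus mostly high where any were found. The share moved little when at least 5 or at least 10 reads were asked for (13 nuclei, 4.11%, in both cases). With 22 PCR cycles and no molecular identifiers, many reads can come from few captured transcripts. The counts therefore cannot show whether Tac1 was on or off in a nucleus. Nuclei without a read may have held transcripts that were missed, which was not tested. The 10 nuclei with most Tac1 held 91.6% of all its reads.

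Tac2 amounted to 4 reads in a single nucleus (4.52 RPM), and no nucleus reached 5 reads. The nucleus with Tac2 was visceral motor-like here, but another implementation of the clustering put it with the somatic motor-like nuclei. That nucleus held 13 reads of Tacr1 and 313 of Tacr3, the highest Tacr3 level of all 316 nuclei at 354 RPM.

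The 2 receptor genes were read over a wide range. Tacr1 ran from 1 read through a median of 20 to 905 reads in the 153 nuclei that held it (0.298, 14.7 and 353 RPM). Tacr3 ran from 1 read through a median of 3 to 548 reads in 192 nuclei (0.213, 3.42 and 354 RPM). Low values made up more of the Tacr3 count: 61 nuclei held a single read of Tacr3, against 29 for Tacr1.

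The order of the 2 receptors therefore depended on what was counted. With at least 1 read Tacr3 was in more nuclei than Tacr1 (60.8% against 48.4%), but with at least 5 reads the shares were 29.4% for Tacr3 and 34.5% for Tacr1, with intervals that overlap (24.5 to 34.8% and 29.3 to 40.0%). With at least 10 reads, 94 nuclei held Tacr1 and 77 held Tacr3. Thinned to 500000 reads each, 119 of 295 nuclei held Tacr1 (40.3%, interval 34.7 to 46.2%) and 130 held Tacr3 (44.1%, interval 38.3 to 49.9%), again not apart.

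Summed over all nuclei and divided by exon length, the level of Tacr1 was 3.36 RPM per kb of exon (interval 3.30 to 3.43) and that of Tacr3 was 2.89 (interval 2.81 to 2.97). Tac4 followed at 0.839, Tac1 at 0.590 (interval 0.553 to 0.629) and Tacr2 at 0.213, and Tac2 was lowest at 0.00612. Before division by exon length the order of Tac1 and Tac4 was the reverse, with 2.01 RPM for Tac1 and 1.05 RPM for Tac4. The exon lengths are those of GENCODE M21, which may not be the annotation the authors counted with. If intronic reads were counted, exon length is not the right divisor, and the levels per kb do not compare genes of unlike span. Per kb, each neighbour in the order lay outside the other's counting interval. Such intervals leave out the spread between nuclei, so they do not settle the order. These sums rest on few nuclei for the rare genes, and the 10 highest nuclei held 41.0% of the reads of Tacr1 and 43.7% of those of Tacr3.

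The labels tie no nucleus number to a plate, so blocks of 96 consecutive numbers were compared only as numbers. Tac1 was in 5 of 80, 4 of 80, 0 of 74 and 6 of 82 nuclei of the 4 blocks. The share of Tacr1 was 51.3%, 41.3%, 52.7% and 48.8% in the same order, and that of Tacr3 62.5%, 66.3%, 52.7% and 61.0%. The intervals of the 4 blocks overlapped for each of the 3 genes.

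Tacr1 was the member that separated somatic from visceral motor-like nuclei. Somatic motor neurons drive skeletal muscle, such as that of the tongue, and visceral motor neurons drive the autonomic ganglia of the inner organs. Among all 22 somatic motor-like nuclei the level of Tacr1 ran from 0 through a median of 69.9 to 353 RPM. Among all 294 visceral motor-like nuclei it ran from 0 through a median of 0 to 216 RPM. The ranges overlap, but 20 of the 22 somatic motor-like nuclei held Tacr1, against 133 of the 294 visceral ones.

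At 500000 reads each, 20 of 22 somatic motor-like nuclei held Tacr1 (90.9%, interval 70.8 to 98.9%), against 99 of 273 visceral ones (36.3%, interval 30.6 to 42.3%). The difference was 54.6 percentage points (Newcombe interval 35.0 to 63.2). Of 20750 genes read in at least 5% of these nuclei, 0.559% had a share at least 40 points higher in the somatic motor-like nuclei and 0.694% a share at least 40 points lower, and the median difference was -1.03 points. Of the 4 members, 3 met the 5% limit, and of these Tacr1 alone was past 40 points. Its summed level was 7.81 times as high in the somatic motor-like nuclei (112 against 14.3 RPM), 8.77 times with totals scaled by TMM and 7.03 times by the mean of the nuclei's own RPM. The difference in share was between 45.7 and 60.4 points under the 13 other settings tried. One of these was another Leiden implementation, which put 37 nuclei into the somatic motor-like class and gave 54.7 points. Limits of 2000 genes or 10% mitochondrial reads, and clustering of the classes with all genes, left the compared nuclei unchanged and gave 54.6 points again.

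The shares of Tacr3 in the 2 classes lay close together. At 500000 reads, 9 of 22 somatic motor-like nuclei (40.9%, interval 20.7 to 63.6%) and 121 of 273 visceral ones (44.3%, interval 38.3 to 50.4%) held it, a difference of -3.41 points (interval -22.0 to 17.7). Where it was read, its median level was 0.912 RPM in the somatic and 4.28 RPM in the visceral motor-like nuclei, and its summed level was 0.541 times as high in the somatic ones (6.11 against 11.3 RPM). The sign of the difference in share was not stable: without thinning it was 12.9 points, at 250000 reads it was -24.5 points, and with the other Leiden implementation it was 18.1 points.

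The precursor genes gave too few nuclei to compare the classes closely. Tac1 was in 2 of 22 somatic motor-like nuclei (76.6 and 54.9 RPM) and in 13 of 273 visceral ones, a difference of 4.33 points (interval -2.98 to 23.2). Both somatic motor-like nuclei with Tac1 lay in the last block of numbers, and without it the difference was -4.37 points. Tac2 and Tac4 were in 0 of 22 somatic motor-like nuclei, which by the exact interval allows up to 15.4%, against 1 and 17 of 273 visceral ones. With the other Leiden implementation, Tac2 was in 1 of 35 somatic motor-like nuclei and 0 of 260 visceral ones. Tac2 was under the 5% limit for the comparison across all genes.

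**Figure D2:**
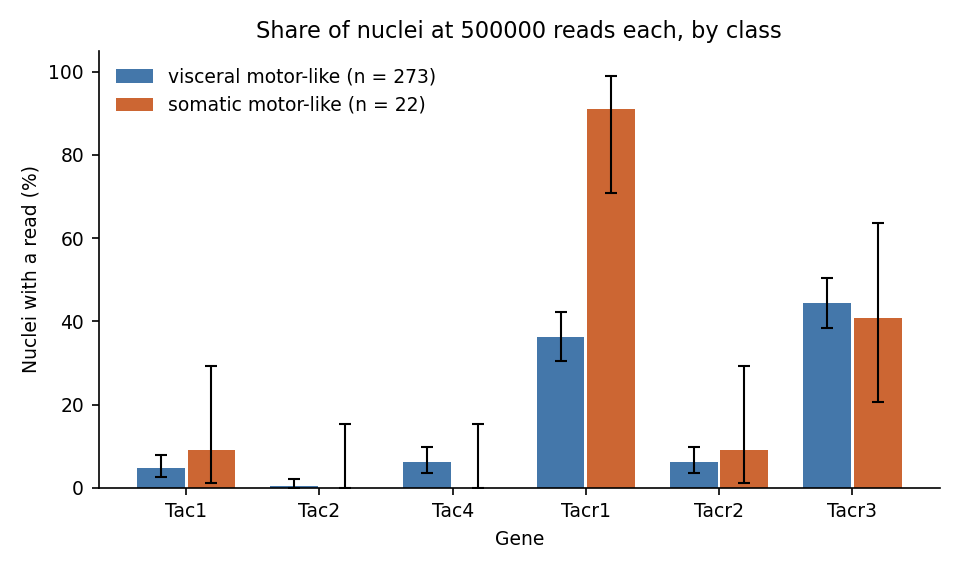
Bars are the percent of nuclei with a read after each nucleus was thinned to 500000 reads, for 273 visceral (blue) and 22 somatic (orange) motor-like nuclei, and error bars are exact 95% intervals for counting error. The intervals of Tacr1 lie apart, at 30.6 to 42.3% and 70.8 to 98.9%, and those of the other 5 genes overlap.

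The marker lists that name the classes differ between them by construction. In the 22 somatic motor-like nuclei the mean share over the 6 somatic motor markers was 31.1%, against 6.72% in the visceral ones, and over the 5 visceral motor markers 8.18% against 57.4%. Phox2a and Tbx3, visceral motor transcription factor genes, were in none of the 22. The 5 astrocyte markers had a mean share of 17.3% in the somatic and 20.4% in the visceral motor-like nuclei, and the 5 oligodendrocyte markers 25.5% and 31.9%. Of the 14 marker lists, 7 had a higher mean share in the somatic motor-like nuclei. Among these 7 were the microglia markers (12.7% against 11.8%) and the vascular markers (23.6% against 22.6%).

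Within the visceral motor-like nuclei both receptor genes varied between clusters. A second clustering, made without the listed genes and without mitochondrial and ribosomal protein genes, gave 12 clusters, numbered by size. At 500000 reads the share of Tacr1 ran from 15.4% (2 of 13, cluster 11) to 68.4% (13 of 19, cluster 7), a range of 53.0 points. The share of Tacr3 ran from 15.8% (3 of 19, cluster 7) to 100% (11 of 11, cluster 10), a range of 84.2 points. At this depth cluster 7 had the highest share of Tacr1 and the lowest of Tacr3. Without thinning, the lowest share of Tacr3 was in cluster 12 (33.3%, against 36.4% in cluster 7), and its range was 51.3 points. The leading genes of cluster 7 were Gm17018, Nox1 and Bub3. At 500000 reads its summed level was 74.5 RPM for Tacr1 and 1.58 RPM for Tacr3. The somatic motor-like nuclei held Tacr1 at a share of 90.9% and a summed level of 101 RPM at the same depth.

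Small clusters make such ranges large for many genes. Over 20749 genes read in at least 5% of the visceral motor-like nuclei, 36.4% had a range of at least 40 points, and the median range was 33.3. The range of Tacr1 was wider than that of 85.0% of these genes, and that of Tacr3 wider than that of 99.6%. With coarser clusters (Leiden resolution 0.5, 7 clusters) the ranges were 42.1 points for Tacr1 and 48.2 points for Tacr3.

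In 3 further clusters Tacr3 was read in more than 60% of nuclei: 17 of 27 in cluster 4 (63.0%), 14 of 21 in cluster 8 (66.7%) and 13 of 17 in cluster 9 (76.5%). Tacr1 was also above its visceral share of 36.3% in these and in cluster 10, at 55.6%, 47.6%, 58.8% and 63.6%. Clusters 4 and 9 had the highest numbers of genes at the thinned depth (medians 11462 and 11448). They also held all 23 nuclei of the cluster with fewer visceral marks, 13 in cluster 4 and 10 in cluster 9. In cluster 9 the mean share was above that of the other visceral motor-like nuclei for 13 of the 14 marker lists. That of the 5 astrocyte markers was 42.4%, against 18.9%, and that of the 5 microglia markers 28.2% against 10.7%. For cluster 10 it was 12 of the 14 lists and for cluster 4 it was 11, against 2 for cluster 7 and 4 for cluster 8. In cluster 10 the 4 inhibitory neuron markers had a mean share of 31.8%, against 11.4% elsewhere. The part of these genes in the receptor shares was not tested. Without the 52 nuclei of clusters 4 and 9, Tacr1 was in 122 of 264 nuclei (46.2%) and Tacr3 in 154 (58.3%).

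Tac1 was read most often in clusters 9 and 4, which had the most genes at the thinned depth and held the 23 nuclei with fewer visceral marks. At 500000 reads it was in 4 of 17 nuclei of cluster 9 (23.5%, interval 6.81 to 49.9%), against 3.52% of the other visceral motor-like nuclei. It was in 3 of 27 nuclei of cluster 4 and 2 of 21 of cluster 8. It was in 1 nucleus each of clusters 1, 2, 6 and 7 and in none of the other 5 clusters, where a count of 0 in 10 to 30 nuclei allows 30.8 to 11.6% by the exact interval. Its range of 23.5 points was wider than that of 28.2% of genes. Tac1, at 4.76% of visceral motor-like nuclei, and Tac2 were under the 5% limit for this comparison. Without clusters 4 and 9, Tac1 was in 8 of 264 nuclei (3.03%), and the Tac2 nucleus, which lies in cluster 9, was gone.

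**Figure D3:**
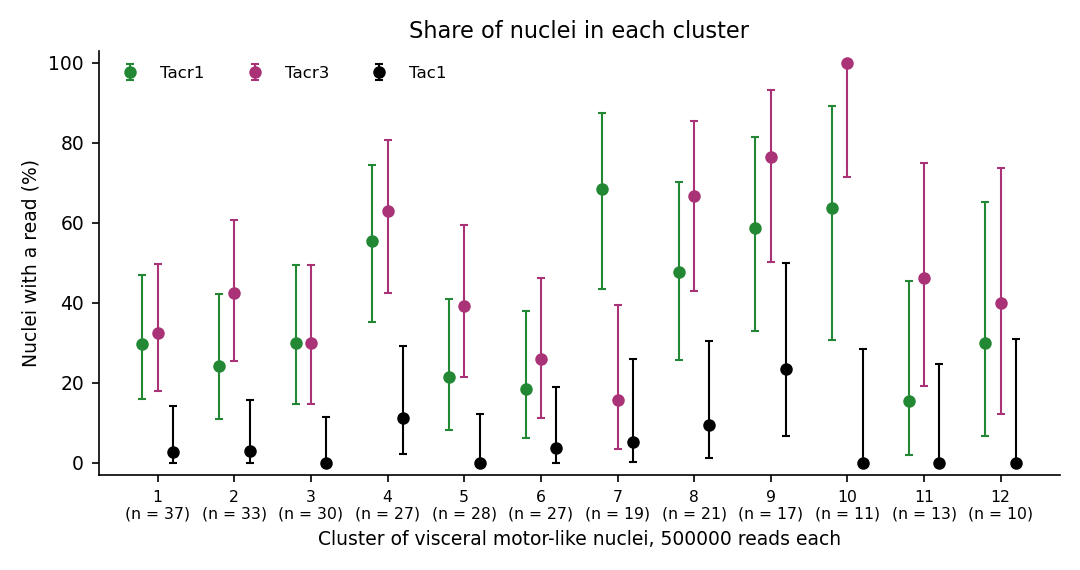
Points are the percent of nuclei with a read of Tacr1 (green), Tacr3 (purple) and Tac1 (black) in the 12 clusters of visceral motor-like nuclei, each nucleus thinned to 500000 reads, and bars are exact 95% intervals for counting error. Cluster 7 is the only cluster in which Tacr1 lies above Tacr3, at 68.4% against 15.8%.

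The 2 receptor genes were found together in many nuclei. Both were read in 101 of 316 nuclei (32.0%, interval 26.9 to 37.4%), Tacr1 without Tacr3 in 52 (16.5%), Tacr3 without Tacr1 in 91 (28.8%) and neither in 72 (22.8%). The median level of Tacr1 was 14.3 RPM in the 101 nuclei with both and 16.3 RPM in the 52 with Tacr1 alone. For Tacr3 the medians were 3.87 RPM with Tacr1 and 2.90 RPM without it.

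At equal depth, 60 of the 119 nuclei with Tacr1 also held Tacr3 (50.4%), against 70 of the 176 without it (39.8%). The difference of 10.6 points had a counting interval of -0.876 to 21.9. Among visceral motor-like nuclei alone it was 14.5 points (interval 2.19 to 26.2). Without clusters 4 and 9 it was 4.34 points, and without the cluster with fewest visceral markers 7.94 points. The size of the difference thus depended on which nuclei were included. Of the other 20749 genes read in at least 5% of nuclei, 0% differed by 40 points or more between nuclei with and without Tacr1, and 0% between nuclei with and without Tacr3. The median difference over these genes was 2.05 points for Tacr1 and 2.07 points for Tacr3, and nuclei with Tacr1 held more genes than those without (medians 10551 and 10045 at this depth). Over the 295 nuclei, Spearman's rho between the thinned reads of the 2 receptors was 0.10, a weak relation in sparse counts that is given as a description only.

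**Figure D4:**
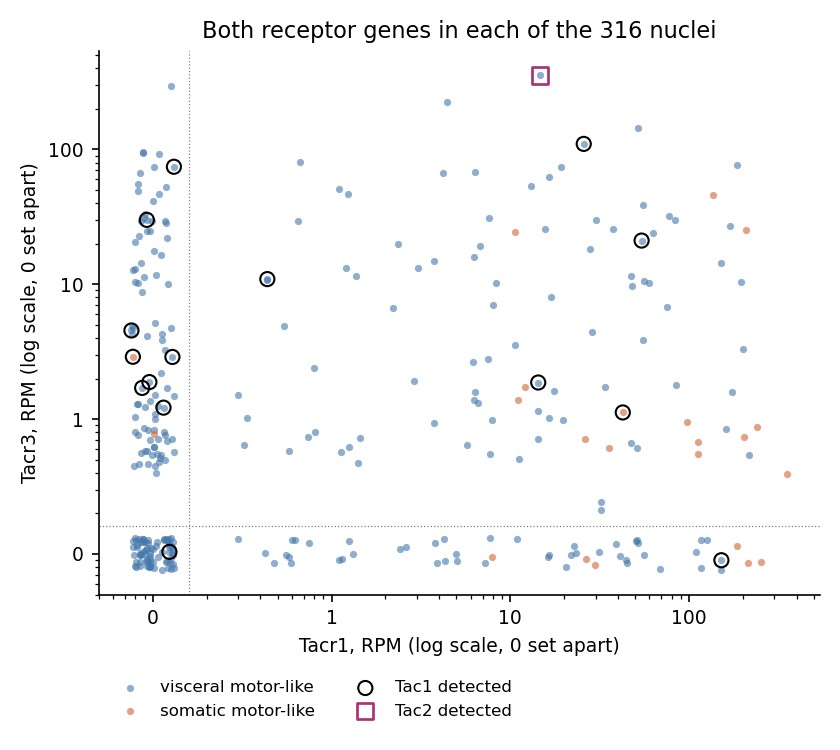
Each point is 1 of 316 nuclei, with Tacr1 on the x axis and Tacr3 on the y axis in RPM on log scales, and nuclei at 0 set apart with jitter beyond the dotted lines. Black rings mark the 15 nuclei with Tac1 and the purple square the nucleus with Tac2. Points fill all 4 fields, with 101 nuclei holding both receptors and 72 neither.

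Of the 15 nuclei with Tac1, 13 held Tacr3, and 6 held Tacr1, the gene of the main receptor of substance P. In detail, 8 held Tacr3 without Tacr1, 5 held both, 1 held Tacr1 without Tacr3 and 1 held neither. The Tacr3 levels in the 13 were mostly low, from 1 to 25 reads in 11 nuclei, with 90 and 205 reads in the other 2. The highest Tacr1 count beside Tac1 was 206 reads, in a visceral motor-like nucleus of cluster 7 with 74 Tac1 reads and no Tacr3. None of the 15 held Tac4, and 2 held Tacr2, with 23 and 12 reads.

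At 500000 reads, 12 of the 15 nuclei with Tac1 held Tacr3 (80.0%, interval 51.9 to 95.7%), against 118 of the 280 without it (42.1%, interval 36.3 to 48.2%). The difference of 37.9 points (interval 12.0 to 52.0) was below the 40-point limit, which 0.154% of 20749 genes passed, in either direction. For Tacr1 the shares were 33.3% (5 of 15) and 40.7% (114 of 280), a difference of -7.38 points (interval -26.5 to 18.2). The Tacr3 difference rested on low counts: where at least 5 reads of each gene were asked for, 3 of 13 nuclei with Tac1 held Tacr3, against 68 of 282 without it, a difference of -1.04 points. Among visceral motor-like nuclei alone it was 34.2 points, and without clusters 4 and 9 it was 36.3 points. At 250000 reads it was 17.9 points (8 of 15 against 101 of 285), and without thinning 27.2 points.

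Marker shares were mostly higher with Tac1, and the mean share was above that of nuclei without Tac1 for 12 of the 14 lists. Over genes in general, the median difference between nuclei with and without Tac1 was 1.79 points. The 5th and 95th percentiles over genes were -14.8 and 21.7 points. The gap junction gene Gja1, an astrocyte marker, was in 46.7% of the nuclei with Tac1 and 13.2% of those without. The myelin gene Mobp was in 33.3% and 8.57%. Of the 5 vascular markers 2 were higher with Tac1, among them Pecam1 (86.7% and 46.4%), and 3 were lower, among them Flt1 (40.0% and 50.4%). Over the lists, the mean share of the 5 oligodendrocyte markers was 46.7% against 30.6%, with all 5 higher, that of the 5 astrocyte markers 29.3% against 19.6%, with 3 higher, and that of the 4 inhibitory neuron markers 20.0% against 11.7%, with 3 higher. The summed level of the oligodendrocyte markers ran from 20 to 1234 RPM with Tac1 and from 0 to 2068 RPM without, and that of the inhibitory markers from 0 to 88 and from 0 to 116 RPM. The vesicular inhibitory transporter gene Slc32a1, Tmem119 of microglia and Cldn5 of endothelium were in none of the 15 nuclei with Tac1, but they were also in only 1.07%, 2.14% and 1.43% of the nuclei without it. The 6 cholinergic markers had a mean share of 75.6% with Tac1 and 82.0% without. The number of genes at equal depth was 10186 and 10216 in the median. The part of other cells in the Tac1 reads was not tested.

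Marker shares were also mostly higher beside the receptors, for 12 of the 14 lists with Tacr3 and 12 with Tacr1. Genes in general were slightly higher too, with median differences of 2.07 points for Tacr3 and 2.05 points for Tacr1. The 95th percentiles over genes were 14.8 points for Tacr3 and 13.2 points for Tacr1. Pecam1 was in 62.3% of nuclei with Tacr3 and 37.6% without, and the inhibitory marker Gad2 in 30.8% and 16.4%. The mean share of the 5 vascular markers was 28.8% with and 17.8% without Tacr3, with all 5 higher, at summed levels of 0 to 222 and 0 to 284 RPM. For Tacr1 the 5 astrocyte markers had a mean share of 26.4% with and 15.9% without, with 4 of 5 higher, and the 4 inhibitory markers 17.2% and 8.66%, with all 4 higher. The part of these genes in the receptor shares was not tested either.

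Genes that followed each member most closely over the 295 thinned nuclei were ranked by Spearman's rho among 14310 genes read in at least 20% of them. The nuclei were thinned to 1 depth and come from pooled tissue, and which of them share a plate or an animal is not given. For Tacr3 the closest were Iqcm (rho 0.42), Malrd1 (0.36), Erbb4, a neuregulin receptor gene (0.36), Bnc2 (0.35) and Gm7706 (0.35), and 4 of these 5 were also in the top 5 over visceral motor-like nuclei alone. Erbb4 was read in 126 of the 130 nuclei with Tacr3, but also in 93.6% of all 295. For Tacr1 the closest were Kitl, the gene of stem cell factor (0.41), Creb5 (0.36), Rbfox3 (0.35), Epha5 (0.34) and the serotonin receptor gene Htr7 (0.34), and only 2 stayed in the top 5 over visceral motor-like nuclei, Creb5 and Kitl. For Tac1 the values were low: Zmat4 had 0.26, Tmem144 0.25, Adamts16 0.25, Myh11, a smooth muscle myosin gene, 0.25 and Slc13a4 0.24, of which 3 stayed. For comparison, 5% of genes lay above 0.20 for Tacr3, 0.16 for Tacr1 and 0.12 for Tac1.

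The genes that process peptide precursors were widespread, and those of the peptidases less uniformly so. All 7 genes of precursor processing were read in more than 50% of nuclei, against 35.1% of all 29779 genes, with a median of 98.1%. Pam, whose product puts the amide on the active end of the peptide, was in 99.4%, and Qpct, whose product closes the N-terminal glutamine ring of some peptides, was lowest at 84.5%. Pcsk1, a prohormone convertase gene, was in 36.4% of somatic and 92.3% of visceral motor-like nuclei at equal depth, a difference of -55.9 points. The processing genes serve all neuropeptides of a cell. Of the 5 listed peptidase genes in the table, 2 were in over 50% of nuclei, with a median of 49.1%: Ece1, the endothelin-converting enzyme that also cleaves substance P, was in 93.4%, Mme, neprilysin, in 63.3%, and Dpp4 was lowest at 18.7%.

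The Gq pathway below the receptors was mostly detected. All 6 G protein genes were in over 50% of nuclei (median 90.7%), from Gnaq at 99.7% to Gna14 at 58.5%. Of the 4 phospholipase C beta genes 2 were, with Plcb1 at 99.4% and Plcb2 at 8.23%. Of the 3 inositol trisphosphate receptor genes, which encode calcium release channels, Itpr1 was in 91.1% and Itpr3 in 33.9%. Itpr3 was past the limit between the classes, with 68.2% of somatic and 19.8% of visceral motor-like nuclei at equal depth, 48.4 points apart. All 5 protein kinase C genes were in over 50%, with Prkca highest at 98.7%, and Prkcd was in 31.8% of somatic and 76.9% of visceral motor-like nuclei (-45.1 points).

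Of the 8 desensitisation genes in the table, 7 were in over 50% of nuclei. Arrb1, a beta-arrestin gene, was in 96.5%, and Rgs4, whose product speeds up the shut-off of Gq, was lowest at 36.4%. Rgs4 was 58.3 points higher in the somatic motor-like nuclei, at 90.9% against 32.6%, close to the pair of values for Tacr1. The 4 genes of the sodium leak channel complex, through which substance P is known to excite some neurons, were in 98.4 to 99.7% of nuclei, Unc79 being lowest and Fam155a highest. Of 12 other channel genes, 11 were in over 50%, with Kcnq5 highest at 99.1%. Kcnk9, a TASK leak potassium channel gene, was lowest at 48.4% and was in 90.9% of somatic against 42.9% of visceral motor-like nuclei (48.1 points). Of the pathway genes named with values, Qpct, Pcsk1, Mme, Plcb2, Prkcd, Rgs4 and Kcnk9 overlap no other gene in GENCODE M21, and for the rest some reads could belong to an overlapping gene. Of the 54 pathway genes in the table, 5 were past 40 points between the classes: Itpr3, Rgs4 and Kcnk9 were higher in the somatic motor-like nuclei, Pcsk1 and Prkcd lower. Over all genes tested the shares were 0.559% higher and 0.694% lower.

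Among peptide receptor genes the 2 main tachykinin receptors stood high. Of 54 listed receptor genes in the table, with a median of 21.0%, only 7 were in over 50% of nuclei. Tacr3 was number 5, after Adcyap1r1 (92.7%), the receptor gene of the peptide PACAP, Npr2 (87.3%), Oprl1 (79.1%) and the mu opioid receptor gene Oprm1 (77.2%). Its interval of 55.1 to 66.2% lay below that of Oprm1 (72.2 to 81.7%) and overlapped that of the next gene, Cckbr (57.3%, interval 51.6 to 62.8%). Tacr1 was number 9 and could not be told from its neighbours, the orexin receptor gene Hcrtr2 (49.7%) and the somatostatin receptor gene Sstr5 (48.1%). Tacr2 was number 39. These ranks count nuclei with at least 1 read, without thinning. With at least 5 reads, Tacr3 was in 29.4% of nuclei and Tacr1 in 34.5%. Of the receptor genes named here, Npr2, Oprm1, Hcrtr2 and Vipr2 overlap other annotated genes. Past 40 points between the classes, Tacr1 and the VIP receptor gene Vipr2 (54.5% against 13.9%) were higher in somatic motor-like nuclei, and Npy2r, Sstr5 and Hcrtr1 lower.

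**Figure D5:**
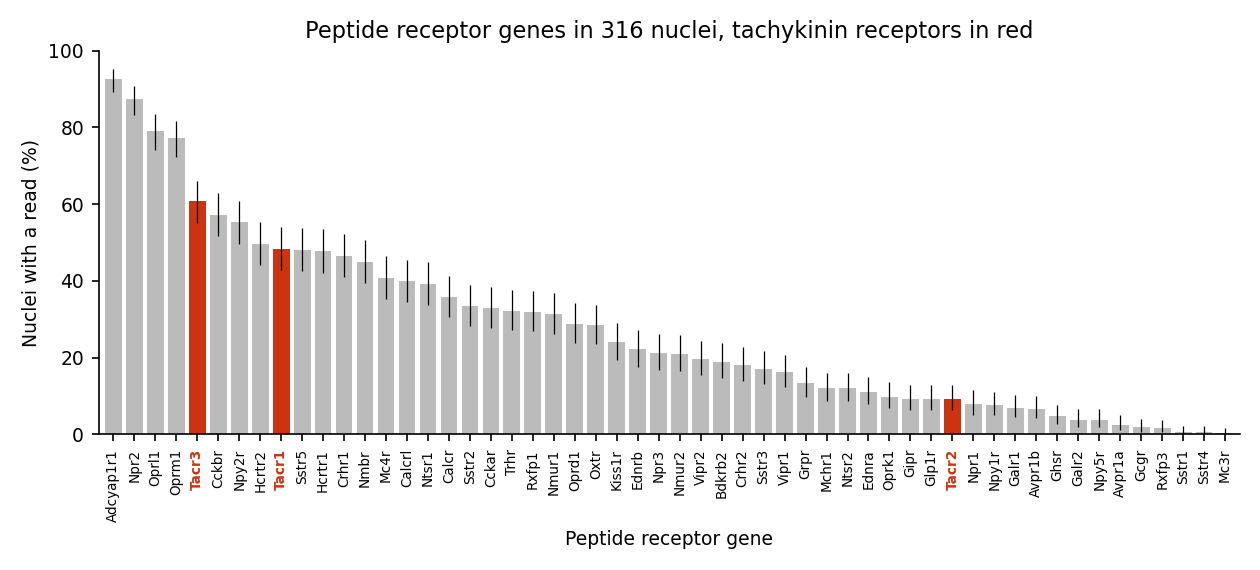
Bars are the percent of 316 nuclei with a read of each of 54 peptide receptor genes, in falling order, with exact 95% intervals for counting error, and the tachykinin receptors are red. Counted with at least 1 read and without thinning, Tacr3 is number 5 at 60.8%, Tacr1 number 9 at 48.4% and Tacr2 number 39 at 9.18%.

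The tachykinin precursors stood low among neuropeptide genes. Of 43 listed neuropeptide genes in the table, with a median of 9.18%, the most often read were Gal (89.9%), Adcyap1 (84.8%), Agrp (63.6%), Nmb (43.0%) and Cartpt (36.4%). Agrp and Nmb overlap other genes on the same strand in GENCODE M21, and Adm, Kiss1 and Iapp overlap others too, so their reads are uncertain. Tac1 was in 15 nuclei, as many as Npy, between Gcg (6.01%) and Adm (3.48%), all with overlapping intervals. Tac2, like Kiss1, was in 1 nucleus, below Iapp at 2 nuclei (0.633%). Between the classes, Calca (59.1% against 4.03%) and Calcb (63.6% against 4.76%), both CGRP genes, were past 40 points higher in somatic motor-like nuclei, and Gal and Adcyap1 lower.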

How the data were processed

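The authors deposited 1 table of read counts, whole numbers that are not normalised, for 29779 gene symbols in 383 nuclei. Per the submitters' processing notes, the build was GRCm38 and the tools were bcl2fastq, STAR, Picard, edgeR and Seurat 3, with no roles. The annotation, counting mode and strand are not given in the sources used here. The labels' protocol names sections near the suprachiasmatic nucleus, yet gives the DMV as the dissected tissue, and this was not resolved.

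The members, gene lists and tests were chosen with earlier results of these data known. Nuclei with at least 1000 genes were used, and no doublet caller was run on nuclei sorted 1 per well. A gene counted as detected with at least 1 read. For comparisons, nuclei were thinned to 500000 reads by drawing reads at random without replacement (seed 1). Shares have exact Clopper-Pearson, sums exact Poisson and differences of shares Newcombe 95% intervals. Since PCR copies were not collapsed by molecular identifiers, these cover counting error only. Counts were scaled to 10000, log-transformed after adding 1, and reduced to 2000 variable genes, 15 principal components, 10 neighbours and Leiden clusters at resolution 1 (scanpy 1.11.5, leidenalg 0.10.2). The Leiden implementation was chosen after the class sizes under many clustering settings had been seen: leidenalg gave 22 somatic motor-like nuclei, the size in an earlier account of these data, and igraph gave 37, by adding a cluster with mixed markers. Both are reported, and some other settings gave smaller somatic motor-like classes. TMM factors came from edgeR on summed counts.

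Named genes were the members, the 5 genes most like each by Spearman's rho, the most and least often read gene of each list, list genes past 40 points between classes, and the 5 top neuropeptide and receptor genes with the members' neighbours in order. Some genes that this rule or the marker lists name are not reported here. The procedures were checked on simulated data.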

Additional observations from a re-analysis of the deposited data

How the results depend on the processing

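The 20 results with a counting interval were recomputed in 164 combinations of result and setting, of which 146 stayed within it and 18 did not. Some of the 146 came from settings that changed no value. A limit of 2000 genes and clustering with all genes left the class differences as they were. Leaving out the cluster with most genes did so for the ranges over clusters. Wide intervals also allowed a change of sign, as for the class difference of Tacr3 without thinning (12.9 points). Asking for at least 5 reads gave 34.5% for Tacr1, 29.4% for Tacr3 and 0% for Tac2, and a Tacr3 difference of -1.04 points between nuclei with and without Tac1. Thinning to 500000 reads gave 40.3% for Tacr1 and 44.1% for Tacr3. The class difference of Tacr3 was -24.5 points at 250000 reads and 18.1 points with igraph's Leiden clustering, while that of Tacr1 was 54.7 points with the latter. The ratio of Tacr1 levels was 8.77 with TMM and 7.03 by means, and that of Tacr3 0.403 by means. Leiden resolution 0.5 gave a range of 48.2 points for Tacr3. With no filter beyond 1 read, 0.397% and 0.492% of genes were past 40 points, higher and lower, because more genes were counted. Without clusters 4 and 9, and without the 23 nuclei with fewest visceral markers, Tac2 was at 0%. Both settings and igraph's clustering were added after the data were seen. The cause of the other changes was not tested.
Leaving out each block of 96 numbers gave shares of 3.85 to 6.20% for Tac1, 0 to 0.427% for Tac2, 47.1 to 50.8% for Tacr1 and 58.9 to 63.2% for Tacr3. The class differences ran from -4.37 to 8.92 points for Tac1, -0.490 to 0 for Tac2, 48.4 to 60.4 for Tacr1 and -8.57 to 3.04 for Tacr3. With and without Tac1, the difference ran from -24.6 to 11.5 points for Tacr1 and 27.7 to 49.6 for Tacr3, and with and without Tacr1, that of Tacr3 ran from 7.73 to 15.2. No retained nucleus had over 10% mitochondrial reads, so that setting changed nothing. Tac2 was in too few nuclei for co-detection or level ratios. No paired analysis was possible because the labels give 1 group.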
